A study of Mus musculus with 6 samples.

Results

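*Etnppl*, *Rpe65* and *Lgi1* are 3 of the 32285 genes counted in single cells of the striatum of neonatal mice (P3, postnatal day 3) and of adults aged 3 months (3m). They were chosen because their rises from P3 to 3m were among the largest in astroglial cells, so their age difference is described here without a test. All animals were wild-type male mice, C57BL/6 by the labels and C57BL/6Jax by the study's methods. Striatal cells were enriched with magnetic beads against ACSA2, an astrocyte surface antigen, and 3 libraries per age were made with 10x Chromium 3′ chemistry from separate preparations. P3 is a stage of immature, partly dividing astrocytes and 3m one of mature astrocytes.

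The 3 genes belong to separate branches of cell biology. ETNPPL is a phospho-lyase that breaks down phosphoethanolamine, an intermediate of membrane phospholipid synthesis. RPE65 is the retinoid isomerase of the visual cycle, best known from the retinal pigment epithelium. LGI1 is a secreted protein that binds the receptors ADAM22 and ADAM23 at synapses, and mutations in its gene cause an inherited epilepsy.

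*Etnppl* lies on mouse chromosome 3 (GRCm38, 130617448 to 130637521, plus strand) and *Rpe65* on the same chromosome (159599175 to 159625321, plus strand). *Lgi1* lies on chromosome 19 (38264536 to 38312214, plus strand). All are protein coding in GENCODE M21, with 14, 15 and 8 exons in the transcript with the most exons. No annotated gene overlaps *Etnppl* or *Rpe65*. Of the 2 that overlap *Lgi1*, *AC116871.2* is on its strand, and how reads shared with it were counted was not tested.

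The sequences just upstream of the starts are shown to set the 3 genes side by side at the level of DNA. They are from RefSeq (GRCm38.p6, plus strand, 5′ to 3′), end at the base before the first GENCODE exon, and have CpG dinucleotides in capitals.
Etnppl upstream, chr3:130617198-130617447: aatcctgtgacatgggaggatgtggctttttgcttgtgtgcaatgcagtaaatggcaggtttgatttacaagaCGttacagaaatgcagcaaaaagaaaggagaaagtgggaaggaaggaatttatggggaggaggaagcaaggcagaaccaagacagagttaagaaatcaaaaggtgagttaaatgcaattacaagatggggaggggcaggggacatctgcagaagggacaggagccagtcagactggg
Rpe65 upstream, chr3:159598931-159599174: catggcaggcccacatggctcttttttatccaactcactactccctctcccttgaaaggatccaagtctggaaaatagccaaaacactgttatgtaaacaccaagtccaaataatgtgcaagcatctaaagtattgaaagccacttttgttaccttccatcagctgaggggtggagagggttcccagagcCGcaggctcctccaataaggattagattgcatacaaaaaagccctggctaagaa
Lgi1 upstream, chr19:38264437-38264535: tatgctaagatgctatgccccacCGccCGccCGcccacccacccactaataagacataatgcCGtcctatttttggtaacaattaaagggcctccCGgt

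The *Etnppl* and *Rpe65* sequences each hold 1 CpG in 250 and 244 bases, and the *Lgi1* sequence holds 5 in 99 bases. Over the full 250 bases before each RefSeq start, *Etnppl* and *Rpe65* had 1 CpG each and *Lgi1* had 10, against a median of 6 over 27025 genes. Of those genes, 8.26% had fewer CpGs than *Etnppl* and *Rpe65*, and 61.8% had fewer than *Lgi1*. These 250 bases were searched on both strands for 5 motifs, none of which contains another. The nuclear receptor motif AGGTCA stood in 13.8% of all such windows. The homeodomain core TAATTA stood in 4.90% of them. The ETS core CGGAAG stood in 13.8%, the NFI site TTGGCA in 12.5% and the TATA box in the form TATAAA in 13% of windows. None stood in any of the 3 members' windows, which says only that these letters are absent there.

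The data consisted of UMIs (unique molecular identifiers, each counting 1 captured transcript). Levels are given as CPM, UMIs scaled to 1000000 in the same sum of cells, and are compared for a gene between cells, not between genes. The authors' annotation gave 1118 astroglial cells at 3m (213, 546 and 359 in replicates 1, 2 and 3) and 8874 at P3. Astroglial sums held 1157485 to 1843998 UMIs per library at 3m and 22327104 to 30617140 at P3. The 12 listed astrocyte markers summed to 19616 to 20118 CPM per library in 3m astroglial cells against 2787 to 3332 CPM in 3m oligodendrocytes. The 10 oligodendrocyte markers summed to 878 to 2173 CPM against 43454 to 65526 CPM. Sub-cluster 16 of the astroglial cells went against its label in replicates 1 and 3, where oligodendrocyte markers exceeded astrocyte markers. Of 16653 distinct barcode sequences, 37 occurred in more than 1 library, and 8 of the 3m astroglial cells carried one of them.

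The 3 genes were close to absent from P3 astroglia and present in every 3m library. *Etnppl* had 0 UMIs in all P3 astroglial cells, where 3 UMIs would have made 0.0387 CPM. At 3m it reached 38.9, 113 and 60.4 CPM in replicates 1, 2 and 3 (mean 70.9 ± 38.3, SD, n = 3). Pooled, the 3m level was at least 1981-fold higher than the limit of 3 UMIs over the P3 group. *Rpe65* had 89.0, 48.3 and 53.7 CPM at 3m (mean 63.6 ± 22.1) and 2 UMIs at P3, both in replicate 3. Its pooled ratio was 2348, with a 95% counting interval from 644 to 19487. *Lgi1* had 45.8, 92.7 and 61.8 CPM at 3m (mean 66.8 ± 23.9) and 14 UMIs at P3 (2, 4 and 8 in replicates 1, 2 and 3). Its pooled ratio was 390, with an interval from 229 to 721. The ages did not overlap for any of the 3 genes, as the choice of genes required. Replicate 2 was the highest 3m library for *Etnppl* and *Lgi1* and the lowest for *Rpe65*.

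In the fit of all 13530 genes tested between the ages, 15.8% were called higher at 3m (edgeR's quasi-likelihood test, adjusted p of at most 0.05 and a log2 difference of at least 1). Among called genes with at least 50 CPM at 3m and no overlap between ages, the members held ranks 1, 3 and 5 by log2 difference, at 13.13, 10.98 and 8.67. Ranks 2 and 4 were *Mobp* (12.34) and *Mbp* (9.70), genes of myelin. Just outside stood *Gng13* (8.01), *Ppp1r1b* (7.76) and *Kirrel2* (7.58). The size of a fitted log2 difference for a gene with few P3 counts depends on the prior count.

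The few P3 UMIs were not spread evenly. Of the 14 *Lgi1* UMIs of P3 astroglia, 9 lay in sub-clusters that the study placed with non-telencephalic astrocytes, as did both *Rpe65* UMIs. These sub-clusters held 14542274 of the 77526661 P3 astroglial UMIs. The non-cycling telencephalic sub-clusters had 4 *Lgi1* UMIs in 43876891, and cycling cells had 1 in 19103875. Sub-cluster 4 alone had 4 *Lgi1* UMIs and 1 *Rpe65* UMI in 1109220, or 3.61 and 0.902 CPM. The intervals were 0.983 to 9.23 and 0.0228 to 5.02 CPM, and its cells were shallow (median 1047.5 UMIs). All of these UMIs came from replicate 3, as did most *Lgi1* UMIs of the non-telencephalic sub-clusters. The uneven spread therefore rests largely on 1 library.

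Adult astroglia were not uniform in these genes, and the members split into opposite patterns. The study re-clustered astroglial cells into numbered sub-clusters. Sub-clusters 7 and 14, where its main trajectory ends, are called telencephalic here. Sub-clusters 13 and 16, which it matched to non-telencephalic populations of a reference atlas, are called non-telencephalic. *Etnppl* and *Lgi1* were higher in non-telencephalic cells, and *Rpe65* was higher in telencephalic cells, in each of the 3 libraries. For *Lgi1* this holds for sub-clusters 13 and 16 summed. Pooled over libraries, sub-cluster 16 alone had 10 UMIs of *Lgi1* (40.2 CPM, interval 19.3 to 74.0), against 40.6 CPM in telencephalic cells. The sub-clusters were formed from all genes of the same cells, so these differences are descriptions without a test.

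*Etnppl* stood at 25.5, 30.0 and 37.8 CPM in telencephalic cells of replicates 1, 2 and 3 and at 277, 210 and 184 CPM in non-telencephalic cells. The means were 31.1 ± 6.22 and 224 ± 47.9 CPM (SD, n = 3), a log2 ratio of telencephalic to non-telencephalic of -2.84. The lowest non-telencephalic library was above the highest telencephalic library by more than the spread within either group. The non-telencephalic value of replicate 1 rested on 17 UMIs in 5 of 17 cells (interval 161 to 443 CPM). Of these UMIs, 13 lay in 2 of the 3 cells of sub-cluster 13.

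*Lgi1* stood at 40.1, 36.2 and 44.3 CPM in telencephalic cells and at 147, 158 and 157 CPM in non-telencephalic cells. The means were 40.2 ± 4.02 and 154 ± 6.37 CPM, a log2 ratio of -1.94. The groups did not overlap. The non-telencephalic value of replicate 1 rested on 9 UMIs in 3 of 17 cells (interval 67.0 to 278 CPM). Over other treatments of the cells its 3 non-telencephalic libraries spread more widely. In 1 random draw of cells thinned to 2000 UMIs they ran from 45.5 to 257 CPM, overlapping the telencephalic ones (up to 51.1 CPM). In a separate draw, used below for shares of cells, the non-telencephalic cells of replicate 1 had 0 CPM. Under a stricter filter on cells (over 1000 genes and under 5% mitochondrial UMIs) they ran from 0 to 111 CPM. These again overlapped the telencephalic ones (up to 42.7 CPM).

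*Rpe65* stood at 91.2, 79.7 and 61.2 CPM in telencephalic cells and at 48.8, 14 and 13.1 CPM in non-telencephalic cells. The means were 77.4 ± 15.2 and 25.3 ± 20.4 CPM, a log2 ratio of 1.61. The non-telencephalic value of replicate 1 rested on 3 UMIs in 17 cells, with a 95% counting interval from 10.1 to 143 CPM that spans its telencephalic value. Pooled over libraries, *Rpe65* had 253 UMIs in telencephalic cells (76.6 CPM) and 18 in non-telencephalic cells (15.7 CPM, interval 9.30 to 24.8). The log2 ratio of means was 2.38 without replicate 1. It was 0.42 in 1 random draw of cells thinned to 2000 UMIs, where non-telencephalic libraries ran from 0 to 136 CPM. In the separate draw used below for shares of cells, telencephalic libraries had 64.5, 97.7 and 68.8 CPM in replicates 1, 2 and 3. Non-telencephalic ones had 90.9, 16.7 and 0 CPM there. The ratio was -0.38 under the stricter filter, which left 4, 50 and 2 non-telencephalic cells. In that stricter set the sign turned.

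**Figure D1:**
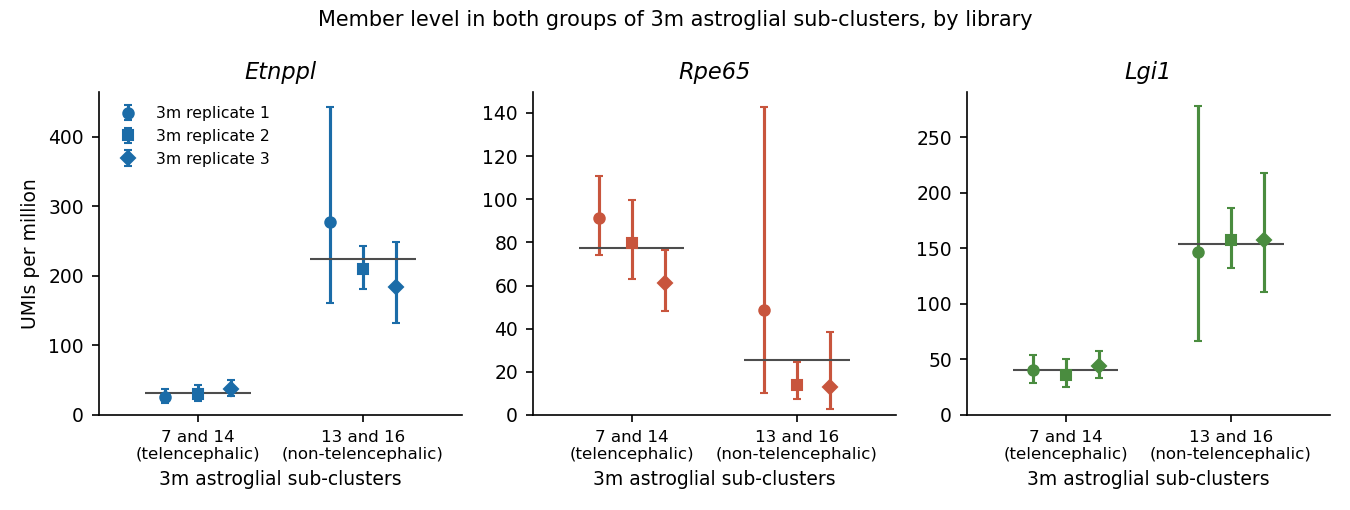
CPM of each gene in 3m astroglial sub-clusters 7 and 14 against 13 and 16. Symbols are the 3 libraries, bars their exact 95% Poisson counting intervals and lines the means. *Etnppl* and *Lgi1* are higher in 13 and 16 summed (means 224 and 154 CPM). *Rpe65* is higher in 7 and 14 (mean 77.4 CPM), with a wide interval for replicate 1 in 13 and 16.

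The name telencephalic for sub-clusters 7 and 14 is a label chosen here, and the regional identity of these cells was not tested.

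Markers of other cell types moved with the same split. The 12 astrocyte markers summed to 19754 to 20186 CPM in telencephalic and 19005 to 20562 CPM in non-telencephalic libraries. The 10 oligodendrocyte markers, all detected in both groups, summed to 389 to 526 CPM in telencephalic and 3307 to 24339 CPM in non-telencephalic libraries. For the 7 neuron markers the ranges were 16.6 to 33.8 and 61.9 to 147 CPM, with *Dcx* at 0 in the non-telencephalic group. For the 7 microglia markers they were 7.25 to 10.4 and 13.1 to 228 CPM, and *C1qa*, *C1qc*, *Csf1r*, *Cx3cr1* and *Tmem119* were at 0 in the telencephalic group.

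Separate exclusions removed the cells with the most such RNA, and cells with some of it remained in each. Leaving out astroglial cells with over 1% of UMIs from oligodendrocyte markers gave log2 ratios of -3.33 for *Etnppl* and -2.01 for *Lgi1*. It left 5, 206 and 36 non-telencephalic cells in replicates 1, 2 and 3, with *Etnppl* at 203 to 517 CPM there. Oligodendrocytes themselves had 2.99 ± 2.41 CPM of *Etnppl* and 1.46 ± 1.48 CPM of *Lgi1*. Leaving out cells with any neuron or microglia marker UMI, an alternative added after seeing the data, gave -2.29 and -2.18. That left 9, 190 and 36 non-telencephalic cells. For *Rpe65* the same exclusions gave 1.22 and 1.28.

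The share of non-telencephalic cells differed between the 3m libraries, at 7.98%, 47.1% and 13.6% of astroglial cells in replicates 1, 2 and 3. *Etnppl* in all astroglial cells followed the same order of libraries. Within telencephalic cells alone, its highest library had 37.8 CPM and its lowest 25.5 CPM, against 113 and 38.9 CPM in all astroglial cells. Means over telencephalic cells alone were 31.1 CPM for *Etnppl*, 77.4 CPM for *Rpe65* and 40.2 CPM for *Lgi1*.

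The 4 adult sub-clusters were unevenly shared by the libraries. Sub-cluster 14 held 182 cells of replicate 1, none of replicate 2 and 2 of replicate 3, and sub-cluster 7 held 14, 283 and 307. A difference between 7 and 14 therefore cannot be told apart from one between libraries. *Etnppl* was at 26.3 CPM in sub-cluster 14 of replicate 1 and at 30.0 and 38.0 CPM in sub-cluster 7 of replicates 2 and 3. *Rpe65* was at 90.1 CPM against 79.7 and 61.4 CPM, and *Lgi1* at 41.3 CPM against 36.2 and 44.4 CPM. For each gene the counting interval of sub-cluster 14 overlapped that of sub-cluster 7 in replicate 2.

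The non-telencephalic sub-clusters differed in *Lgi1* in the library with most of their cells. In replicate 2, which held most of these cells, *Lgi1* had 132 UMIs in 168 cells of sub-cluster 13 (194 CPM, interval 162 to 230). In sub-cluster 16 it had 3 UMIs in 89 cells (17.0 CPM, interval 3.50 to 49.6). *Etnppl* was at 219 CPM in sub-cluster 13 and 175 CPM in sub-cluster 16 of that library, with overlapping intervals (185 to 257 and 119 to 249). In replicate 1 the order of *Lgi1* was the other way, at 131 CPM in 13 and 156 CPM in 16, from 3 and 6 UMIs. Oligodendrocyte markers differed between the same sub-clusters, at 5006, 1817 and 1193 CPM in sub-cluster 13 and 35890, 12794 and 15686 CPM in sub-cluster 16 of replicates 1, 2 and 3. Astrocyte markers stood at 28510, 20639 and 20360 CPM in 13 and 15812, 16068 and 11068 CPM in 16. The part of this RNA in the *Lgi1* difference was not tested. In replicate 3 sub-cluster 16 had 1 UMI of *Lgi1*, 1 of *Etnppl* and 0 of *Rpe65* in 33341. Sub-cluster 13 of that library had *Lgi1* at 179 CPM. Set beside telencephalic cells of the same library, *Lgi1* in sub-cluster 16 was higher in replicate 1 (156 against 40.1 CPM). It was lower in replicates 2 and 3 (17.0 against 36.2 and 30.0 against 44.3 CPM).

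Detection in single cells was sparse. Of the 1118 adult astroglial cells, 209 had a UMI of *Etnppl*, 194 of *Rpe65* and 216 of *Lgi1*, and 134, 141 and 145 of them had just 1. The highest counts in a cell were 11, 7 and 6. No cell-level on or off state can be read at this depth. With each cell thinned to 2000 UMIs, which left 675 of 788 telencephalic and 226 of 323 non-telencephalic cells, *Etnppl* was detected in 4.55% to 6.32% of telencephalic and 29.4% to 42.9% of non-telencephalic cells per library. *Rpe65* was detected in 11.3% to 16.8% and 0% to 9.09%. *Lgi1* was detected in 5.45% to 8.60% and 0% to 31.4%. Without thinning the telencephalic ranges were 9.54% to 12.6%, 18.4% to 32.1% and 9.89% to 17.3%. In oligodendrocytes, given for comparison, the thinned ranges were 0.391% to 1.55% for *Etnppl*, 0.195% to 0.281% for *Rpe65* and 0% to 0.844% for *Lgi1*. The share of 0% for *Lgi1* comes from the 11 non-telencephalic cells of replicate 1 left after thinning. In the random draw used for these shares its CPM there was 0. Before thinning, the 17 such cells held 9 UMIs of *Lgi1* (147 CPM), so no order is read from this share.

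The members were found in the same cells about as often as their separate shares give. Among thinned telencephalic cells, 4 had both *Etnppl* and *Rpe65* (4.77 from the shares), 4 had *Etnppl* and *Lgi1* (2.61) and 5 had *Rpe65* and *Lgi1* (6.01). Among thinned non-telencephalic cells, 17 had *Etnppl* and *Lgi1* (19.7 from the shares), 1 had *Etnppl* and *Rpe65* (1.84) and 0 had *Rpe65* and *Lgi1* (1.42). These counts are descriptions and the pairs were not tested.

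Pseudotime, the study's ordering of cells from cycling progenitors to adult astrocytes, covered mainly the telencephalic branch. It left out 198 of 202 cells of sub-cluster 13 and all 121 of sub-cluster 16. As a result 69.7% of *Etnppl* UMIs and 58.4% of *Lgi1* UMIs of 3m astroglia lay in cells with no pseudotime, against 9.23% of *Rpe65* UMIs. Bins 16 to 19 held only 3m cells, and bin 15 held 22 cells of 3m and 9 of P3.

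Along bins 15 to 19, *Rpe65* stood at 101, 66.7, 70.1, 82.3 and 78.9 CPM. *Lgi1* stood at 101, 58.8, 32.7, 47.0 and 21.9 CPM, and *Etnppl* at 101, 23.5, 25.9, 41.5 and 17.5 CPM. In bin 15 each gene had 3 UMIs, with a counting interval from 20.8 to 294 CPM. From bin 16 to bin 19 the intervals of each gene overlapped, with *Rpe65* at 38.8 to 107 CPM in bin 16 and 46.8 to 125 CPM in bin 19. Overlap of intervals does not show that levels were equal, and bin 19 held only 4 UMIs of *Etnppl* and 5 of *Lgi1*. A rise or fall from bin 16 to bin 19 was not tested, and none is read here. The bins also mixed libraries unevenly, with 25 of the 30 cells of bin 19 from replicate 1 and 43 to 107 cells per library in bin 18.

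The bins just before, 13 and 14, held 1649 and 1252 P3 cells. In 11987108 UMIs of bin 13 there was 1 UMI of *Rpe65* and 1 of *Lgi1*, and in 10073316 of bin 14 there were 2 of *Lgi1*. *Etnppl* had 0 in both bins. The 9 P3 cells of bin 15 had 0 UMIs of any member in 47184, which allows up to 63.6 CPM, so an adult level of *Etnppl* or *Lgi1* could have been missed there. Likewise 17 P3 cells that the authors clustered with adult astrocytes had 0 in 40612 UMIs, which allows up to 73.9 CPM.

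**Figure D2:**
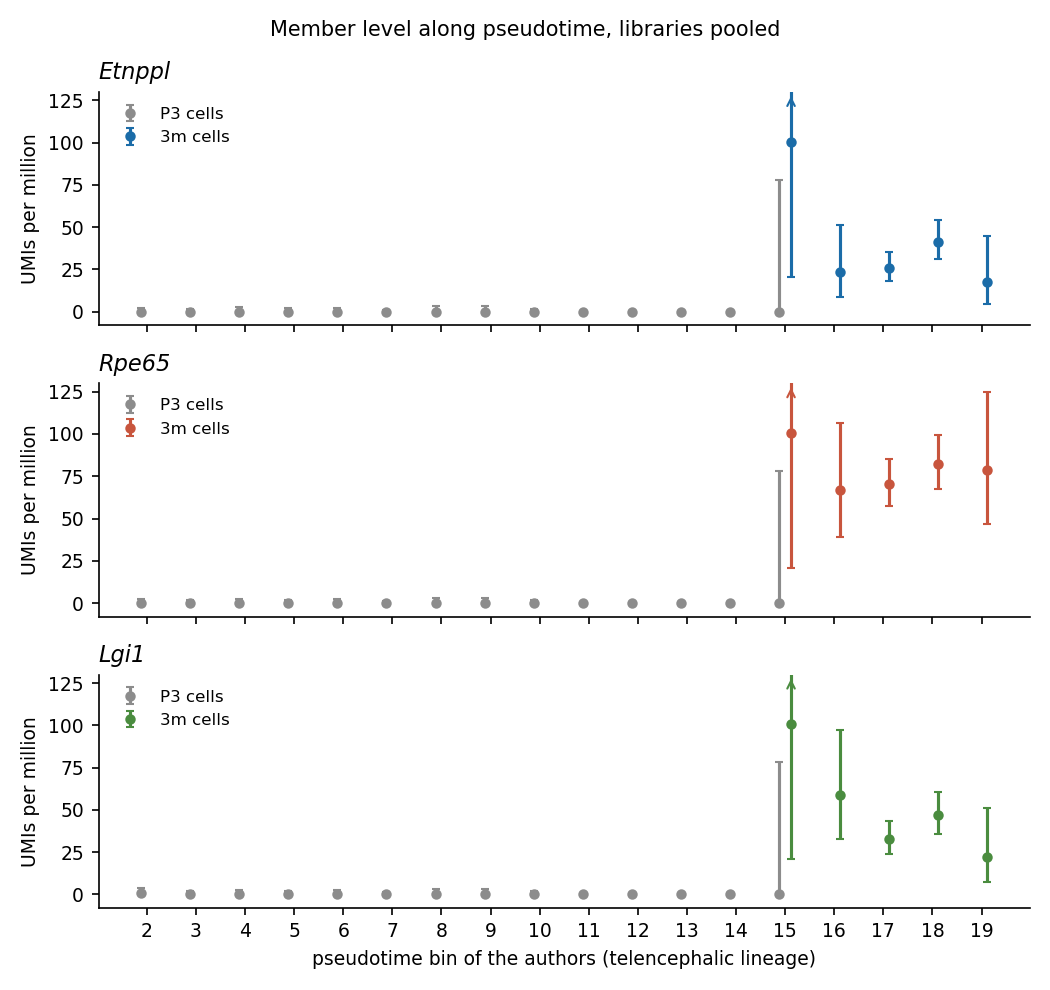
CPM of each gene by the authors' pseudotime bin, libraries pooled, for P3 cells (grey) and 3m cells (colour), with exact 95% Poisson intervals. Bin 11 also held 2 cells of 3m and bins 13 and 14 held 1 each, not drawn. An arrow marks an interval that leaves the axis. All 3 genes lie near 0 in P3 cells through bin 14 and are present in 3m cells in every bin from 15 to 19; from bin 16 on the intervals of each gene overlap.

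In oligodendrocytes the members were near the level that astrocyte genes reach there. The 1731 oligodendrocytes at 3m had 34 UMIs of *Etnppl*, 16 of *Rpe65* and 17 of *Lgi1* in 11189465. *Etnppl* averaged 2.99 ± 2.41 CPM over the 3 libraries (SD), *Rpe65* 1.43 ± 0.583 CPM and *Lgi1* 1.46 ± 1.48 CPM. Pooled levels were 3.96%, 2.36% and 2.16% of those in 3m astroglia. The 12 astrocyte markers in oligodendrocytes stood at a median of 2.77% of their astroglial level, from 1.59% for *Gjb6* to 75.7% for *S100b*, which oligodendrocytes are known to express. The members lay within the range of these markers. Whether their UMIs in oligodendrocytes came from free astrocyte RNA was not tested.

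Other cells held few UMIs. Endothelial cells at 3m had 1 of *Etnppl*, 1 of *Rpe65* and 4 of *Lgi1* in 1232030, and microglia had 2 of *Etnppl* and 0 of the others in 255397, which allows up to 11.7 CPM. Precursors had 1 UMI of *Lgi1* in 70421, and cells named pericytes had 0 of any member in 48566, which allows up to 61.8 CPM. The 14 3m cells of cluster LOW_23, all from replicate 2, in which 4 listed markers of multiciliated cells summed to 8413 CPM, had 6 UMIs of *Lgi1* (36.1 CPM, interval 13.3 to 78.6) and 2 of *Etnppl* in 166165. Its 31 P3 cells had 3 of *Lgi1*. Neurons, where LGI1 is best known, were sampled only at P3, by 53 cells with 1 UMI of *Lgi1* in 350845.

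The age difference in microglia, precursors, cells named pericytes and endothelial cells, which the choice of genes did not use, could not be decided here. With 3 against 3 libraries an exact permutation test cannot go below 0.1, and the members had UMIs in at most 1 library per age in each of these classes, so p was 1 in all 12 two-sided tests by construction. In 3m endothelial cells the 4 UMIs of *Lgi1*, the 1 of *Etnppl* and the 1 of *Rpe65* all came from replicate 2.

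**Figure D3:**
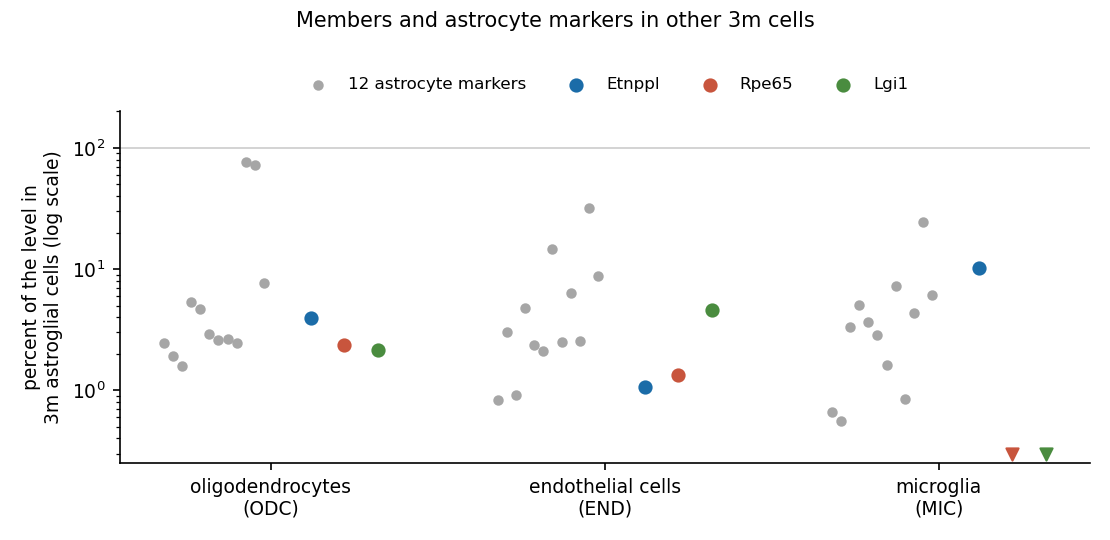
Level of each gene in 3m oligodendrocytes, endothelial cells and microglia as a percent of its level in 3m astroglial cells, on a log axis, libraries pooled. Grey points are the 12 astrocyte markers, coloured points the 3 members, and triangles at the lower edge mark 0 UMIs. In oligodendrocytes the members, at 2.16% to 3.96%, lie among the astrocyte markers.

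The genes with the most similar levels over clusters overlapped in part between members. Similarity was Pearson's r of log2(CPM + 1) over the 24 combinations of cluster and age with at least 50 cells, among 5019 genes, and is given as a description since the clusters share libraries and cells. Adult astroglia entered only as the clusters AST_3m_5 and AST_3m_14. The members were chosen for high levels in these cells, and the candidates needed at least 100 UMIs there. A high r, also between members, therefore gives no support apart from that choice. Closest to *Etnppl* were *Gjb6* (r = 0.87), *Grin2c* (0.86), *Lgi1* (0.86), *Lars2* (0.86) and *Aldh1a1* (0.84). Closest to *Rpe65* were *Kirrel2* (0.93), *Klhdc7a* (0.92), *Lgi1* (0.80), *Grin2c* (0.80) and *Efemp1* (0.79). Closest to *Lgi1* were *Ppp1r1b* (0.91), *Etnppl* (0.86), *Grin2c* (0.85), *Gjb6* (0.82) and *Klhdc7a* (0.81). *Gjb6* encodes an astrocyte connexin and *Grin2c* a glutamate receptor subunit.

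Only some of these genes showed the regional split of their member. Between the authors' adult clusters AST_3m_5, which holds the telencephalic cells, and AST_3m_14, *Kirrel2* went from 64.4 to 7.20 CPM and *Efemp1* from 90.7 to 12.6 CPM, as *Rpe65* did from 75.8 to 16.2 CPM. *Lars2* went from 790 to 2390 CPM and *Aldh1a1* from 71.0 to 123 CPM, as *Etnppl* did from 32.3 to 212 CPM. *Gjb6*, closest to *Etnppl*, went from 340 to 405 CPM. *Ppp1r1b*, closest to *Lgi1*, went from 96.7 to 119 CPM, against 41.6 to 158 CPM for *Lgi1*. *Grin2c* went the other way from *Etnppl* and *Lgi1*, from 208 to 70.2 CPM, and *Klhdc7a* moved little, from 23.1 to 30.6 CPM.

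Pathway genes around the members were compared between the ages by the fit of all genes, in which 32.1% were called in either direction, 15.8% higher and 16.3% lower at 3m. In the retinoid list the enzymes called were all higher at 3m, and receptors were called in both directions. Of 29 listed genes besides *Rpe65*, 18 passed the filter on low counts, 7 were called higher and 2 lower, and the median log2 difference was 0.79 against -0.04 over all genes. *Aldh1a1*, which makes retinoic acid from retinal, stood at 86.4, 75.4 and 91.7 CPM at 3m and at 2.15, 1.31 and 1.91 CPM at P3 (log2 difference 5.76, SE 0.21, edgeR adjusted p 3.06e-09). *Dhrs3*, which reduces retinal to retinol, rose from 12.5 ± 2.77 to 70.3 ± 17.9 CPM (log2 difference 2.67, edgeR adjusted p 3.37e-07). *Rlbp1*, the retinal-binding protein CRALBP that works with RPE65 in the eye, fell from 111 ± 17.7 to 31.3 ± 17.1 CPM (log2 difference -1.66, edgeR adjusted p 0.000497). Also called, below 20 CPM, were the enzymes *Rdh12* and *Bco2* and the receptors *Rarb*, *Rarg* and *Rxra*, all higher, and the receptor *Rxrg*, lower.

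*Lrat*, the retinol acyltransferase that supplies RPE65 with its substrate in the eye, had 22 UMIs in P3 astroglia (0.284 CPM). It had 0 UMIs in 4473981 of 3m astroglia, which allows up to 0.671 CPM, above the P3 level, so no difference can be read. *Stra6*, the retinol-binding protein receptor, had 0 UMIs in 3m astroglia and 92 in 3m endothelial cells (74.7 CPM). Both genes were singled out after their values were seen. *Rdh14*, *Rdh11* and *Rdh5*, retinol dehydrogenases, were at 58.1, 34.5 and 32.4 CPM in adults against 40.0, 27.0 and 25 CPM in neonates and were below the fold threshold.

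The phospholipid list had the fewest calls of the 3 lists. Of 21 listed genes besides *Etnppl*, 19 passed the filter, 2 were called higher and 1 lower, with a median log2 difference of 0.11. *Cept1*, the choline and ethanolamine phosphotransferase, rose from 21 ± 4.66 to 57.8 ± 27.4 CPM (log2 difference 1.62, edgeR adjusted p 0.000205). *Chpt1*, the choline phosphotransferase, rose from 153 ± 17.8 to 271 ± 60.1 CPM (log2 difference 1.03, edgeR adjusted p 0.000734). It fell below the fold threshold in 7 of the alternatives, among them without 3m replicate 2 (0.83) and without 3m replicate 3 (0.93). The gene called lower was *Pemt*, at 3.56 against 10.6 CPM, which makes phosphatidylcholine from phosphatidylethanolamine and was chosen with its values in view. *Etnk1*, which makes the phosphoethanolamine that ETNPPL breaks down, was not called, with 67.9 ± 5.54 CPM in adults against 55.2 ± 23.8 CPM in neonates. *Gde1*, *Pisd* and *Ptdss2*, also of this list, were at 165, 73.0 and 55.2 CPM in adults against 188, 65.7 and 67.4 CPM in neonates and were not called.

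The LGI list held the largest share of calls among the 3 lists. Of 15 listed genes besides *Lgi1*, 13 passed the filter, 8 were called higher and 1 lower, with a median log2 difference of 1.5. *Adam23*, a receptor of LGI1, stood at 68.3, 68.9 and 72.0 CPM in adults and at 9.54, 8.0 and 10.6 CPM in neonates (log2 difference 3.09, SE 0.17, edgeR adjusted p 1.79e-08). *Adam22*, the other main receptor, was at 9.55 ± 4.77 and 9.33 ± 2.72 CPM and was not called. *Lgi4*, the family member known from myelinating glia of peripheral nerve, rose from 10.1 ± 2.05 to 89.0 ± 8.04 CPM (log2 difference 3.33, edgeR adjusted p 1.80e-08). *Kcna2*, a potassium channel linked to LGI complexes, rose by a log2 difference of 1.78 (edgeR adjusted p 1.16e-05), to 76.9 CPM. The scaffold genes *Dlg1* and *Dlg3* rose by 1.5 and 1.43 (edgeR adjusted p 4.45e-05 and 0.000430), and *Dlg4*, at 38.8 against 30.7 CPM, was below the fold threshold. Also called, below 20 CPM, were *Dlg2* and *Adam11*, higher, and *Lgi2*, lower.

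Levels of the LGI family in adult astroglia and oligodendrocytes are given as a description. *Lgi1* and *Lgi4* were at 70.4 and 87.8 CPM in 3m astroglia against 1.52 and 3.66 CPM in 3m oligodendrocytes, pooled over libraries. *Lgi3* was at 11.6 CPM in astroglia and 277 CPM in oligodendrocytes. Of the receptors, *Adam23* was at 69.7 and 7.42 CPM and *Adam22* at 10.3 and 32.6 CPM. *Lgi3* was called higher with age in astroglia (log2 difference 1.72, edgeR adjusted p 0.000230), where oligodendrocyte marker RNA also rose, and the part of that RNA in its rise was not tested.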

How the data were processed

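The authors mapped the reads of 6 10x Chromium 3′ libraries to the mouse genome (mm10) with Cell Ranger and deposited raw UMI counts per gene and barcode. Version 3.1.1 of Seurat is named in the submitters' processing notes. Deposited with them was a table of the annotated cells that gives cluster names, astroglial sub-clusters, pseudotime as a score and its bins. The annotated cells were exactly those with over 500 genes and under 10% mitochondrial UMIs. Doublets were not removed here.

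Counts were summed per library over the authors' astroglial cells, since cells are not replicates, and fitted with edgeR 4.0.16 (R 4.3.3; TMM, filterByExpr, quasi-likelihood test, Benjamini-Hochberg adjustment over all genes). Calls needed adjusted p-values no higher than 0.05 together with a log2 difference of 1 or more in size. SEs were computed as the size of the log2 difference over the square root of edgeR's F statistic. The code was tested on simulated data. CPM are UMIs scaled to 1000000. Intervals are exact Poisson at 95%, and they and the limits of 3 counts cover counting error only. P-values measure the spread between libraries.

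The members, gene lists and tests were chosen with earlier results of these data known. Named were the members, the listed genes called with at least 20 CPM in the higher age and up to 4 others per list of highest CPM, the 5 genes most like each member, and ranks 1 to 8 by log2 difference. A gene that the counts of a list include is not reported here. Alternatives were other scalings (DESeq2 1.42.0 among them), filters, a replicate block, thinning and left-out libraries or cells.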

Additional observations from a re-analysis of the deposited data

Results flagged for a closer look

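All 3 genes were present in 3m barcodes that the authors left out for at least 10% mitochondrial UMIs, a set that no comparison above uses. *Etnppl* averaged 142 ± 78.3 CPM there (83.3, 231 and 111 in replicates 1, 2 and 3), *Lgi1* 99.1 ± 41.6 CPM (69.5, 147 and 81.1) and *Rpe65* 27.2 ± 19.9 CPM (48.7, 9.46 and 23.4). In each library *Etnppl* and *Lgi1* were higher and *Rpe65* lower in these barcodes than in annotated astroglial cells, and the difference was not tested. The left-out barcodes mix cell types. Over all left-out 3m barcodes, oligodendrocyte markers summed to 13352, 5705 and 7301 CPM in replicates 1, 2 and 3, against 1660, 2173 and 878 CPM in annotated astroglia. Astrocyte markers summed to 14724, 15612 and 14483 CPM against 20118, 19764 and 19616 CPM, and red blood cell markers reached 16807 CPM in replicate 3. Their part in the difference was not tested. The 1461 barcodes held 601 UMIs of *Etnppl*, 454 of *Lgi1* and 215 of *Rpe65*, more than the 343 and 315 of annotated astroglia for *Etnppl* and *Lgi1*. The 145 such barcodes of P3 had 0, 1 and 0 UMIs of *Etnppl*, *Lgi1* and *Rpe65* in 229305, which for a count of 0 allows up to 13.1 CPM. The lowest 3m value of *Rpe65*, 9.46 CPM, is under that limit. Per 1000 UMIs of astrocyte markers over all left-out 3m barcodes, *Etnppl* had 5.64, 14.3 and 7.39 UMIs, against 1.93, 5.73 and 3.08 in annotated astroglia.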

How the results depend on the processing

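Thinning every library to the smallest astroglial total lowered the genes called between ages from 4344 of 13530 tested to 2733 of 9178. The retinoid genes called went from 9 of 18 tested to 4 of 10. Without any scaling, 38.6% of calls were higher, against 49.3%, and the median log2 difference was -0.24 against -0.04. Leaving out 1 library gave 3234 to 4257 calls over all genes, 8 to 9 retinoid, 3 to 4 phospholipid and 8 to 9 LGI genes. With a replicate block the calls were 4420 over all genes and 9, 3 and 9 in the lists. Deviations of same-numbered libraries correlated at 0.25, 0.11 and 0.062, so the numbers were not taken to pair them, and 3m replicate 2 correlated better with P3 replicate 3 (0.15) than with its own number. *Chpt1* fell to 0.998 with RLE scaling, 0.83 without scaling, 0.91 without the filter on low counts, 0.98 with DESeq2 and 0.85 in the telencephalic lineage. Small differences that changed sign were *Gde1* (0.0031 with the block, -0.093 to 0.081 without a replicate, 0.11 in the telencephalic lineage, 0.088 thinned), *Ptdss2* (0.00055 in the telencephalic lineage) and *Adam22* (-0.23 without 3m replicate 2, up to 0.57 without P3 replicate 3).

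The stricter filter on cells turned the log2 ratio of *Rpe65* between sub-cluster groups to -0.38 and moved that of *Lgi1* to -1.16, the 3m level of *Lgi1* to 39.5 CPM and the log2 ratio of *Etnppl* to oligodendrocytes to 5.29. It left 12, 137 and 88 astroglial cells. Cells thinned in 1 random draw gave 0.42 for *Rpe65*, with non-telencephalic libraries from 0 to 136 CPM. Means over cells gave -1.72 for *Lgi1*. Without cells holding a neuron or microglia marker UMI, *Lgi1* had -2.18. In telencephalic cells alone *Etnppl* had 31.1 CPM and *Lgi1* 40.2 CPM, and *Etnppl* had a log2 ratio of 3.38 to oligodendrocytes. Leaving out 1 of the 3m libraries gave log2 ratios between sub-cluster groups of -3.13 to -2.54 for *Etnppl*, 1.30 to 2.38 for *Rpe65* and -1.99 to -1.85 for *Lgi1*. The tests by age in other cells could not pass in any setting and say nothing about stability. The cause of these changes was not tested.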
